A study of Ictidomys tridecemlineatus with 5 samples.

Results

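The enzymes and carriers that make, package, retrieve and break down the inhibitory transmitters GABA and glycine were examined in RNA of the whole eye and of the isolated retina in a ground squirrel, Ictidomys tridecemlineatus. The proteins were chosen by name: 7 Swiss-Prot entry names were considered, and every assembled transcript whose best Swiss-Prot hit carried one of them was taken. Of the 7 names, 5 were found in both the eye and the retina table, out of 13949 names that the tables share. They are DCE1 (glutamate decarboxylase GAD1), DCE2 (glutamate decarboxylase GAD2), VIAAT (the vesicular transporter VGAT), SC6A9 (the glycine transporter GlyT1) and GABT (GABA transaminase, ABAT). They had 15 transcripts among 61797 with a hit in eye and 20 among 62889 in retina. The name SC6AB was in neither table used here, and the GABA transporter GAT3 stands there as S6A11. It was outside the rule and is described beside the members as one of the related carriers. No row used here carried SC6A5, the name of the glycine transporter GlyT2, which was not analysed here.

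There were 2 eye libraries and 3 retina libraries, all from animals labelled wild type, with no treatment or age in the labels. Per the labels, each library preparation pooled 4 animals. Each tissue has 1 value per transcript, read as RPKM (reads per kilobase of transcript, scaled by the authors to a total that is constant in the table), so differences between the tissues could not be checked against replicates or tested. The scaling corresponds to totals of 264219334 reads in eye and 355988270 in retina, and the intervals below are 95% intervals for counting error only.

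GABA is made from glutamate by the 2 glutamate decarboxylases. GAD1 supplies much of the GABA of a cell throughout its cytoplasm, and GAD2 is concentrated at nerve endings. VGAT loads both GABA and glycine into synaptic vesicles, and it is the carrier that inhibitory neurons of either kind share. After release, GABA is taken up by carriers such as GAT3 and glycine by GlyT1, and GABA transaminase begins the breakdown of GABA in mitochondria. In the mammalian retina amacrine cells are the main source of both transmitters, some horizontal cells also hold GABA, and Mueller glia take GABA up.

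By their highest transcripts, all 5 members had a lower level in eye than in retina. By this measure they fell into a group with a clear difference and a group with a small one. GAD1, GAD2 and VGAT were between 1.75-fold and 2.02-fold higher in retina. GlyT1 and GABA transaminase were each 1.18-fold higher there. Differences below are log2(eye + 1) minus log2(retina + 1) of the highest transcript of each protein, which understates the difference of low genes. The grouping depended on this choice. With sums over transcripts the differences were -2.0 for GAD1, -0.77 for GAD2, -0.78 for VGAT, -0.87 for GlyT1 and 1.67 for GABA transaminase. With reads not divided by length they were -0.32, -0.84, -0.43, -0.13 and 0.45, in the same order. With the highest transcripts the median over the 5 members was -0.77. It was -0.0035 over the 13383 proteins in both tables that reached 1 RPKM in either tissue. Of those 13383 proteins, 50.3% were lower in eye by any amount, and 3.6% were at least 2-fold lower, a mark that 0 of the 5 members passed. GAD1 was just outside it at -0.995, although its plain RPKM ratio was 2.02. With both tissues rescaled to an equal total over proteins, 66.3% of proteins were lower in eye and their median was -0.25. The 5 members were then all lower, their median was -1.04 and 3 passed the 2-fold mark. The whole eye also holds tissues outside the retina, such as lens and cornea. In bulk tissue, a smaller share of retinal RNA, fewer cells of a type and less RNA per cell cannot be told apart.

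**Figure D1:**
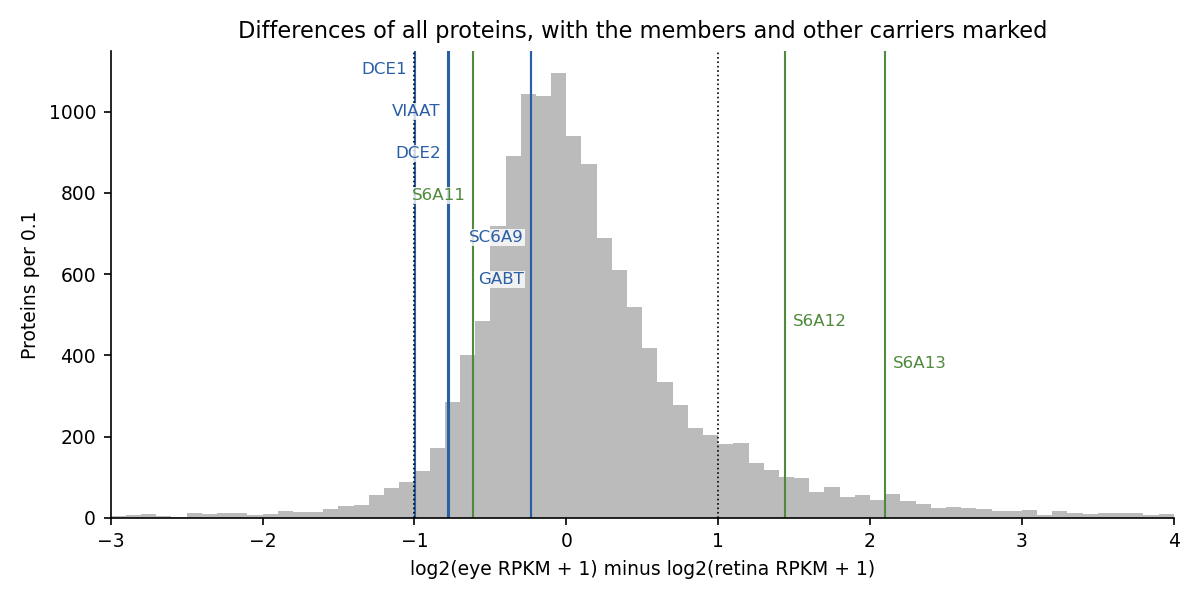
Histogram of the difference between eye and retina (x axis, log2 scale with a pseudocount of 1) for the 13383 proteins compared, as proteins per bin of 0.1 (y axis), with the 5 members in blue, 3 related carriers in green and dotted lines at a 2-fold difference. DCE1, VIAAT and DCE2 lie on the left side of the distribution, SC6A9 and GABT lie within its body, and the carriers S6A12 and S6A13 lie on its right side; 138 proteins beyond -3 or 4 are not drawn.

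GAD1, the first of the synthetic enzymes, had 3 transcripts in eye and 8 in retina. The 2 eye transcripts aligned over 581 amino acids stood at 46.0 and 43.8 RPKM. The 4 retina transcripts with an alignment of that length stood at 92.7, 86.6, 82.2 and 79.3 RPKM. The lowest of these long transcripts in retina is above the highest in eye, but they are not replicates, and the eye ones are longer. The highest transcripts, of 3514 bases in eye and 2186 in retina, differed by -0.995 (interval -1.01 to -0.98). The pair closest in length among the long transcripts, 3514 and 2490 bases, differed by -0.77. In RPM, the reads scaled by the same total with no division by length, the levels were 162 in eye and 203 in retina. That is a difference of -0.32 (-0.34 to -0.31).

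Shorter GAD1 transcripts were present in both tissues at lower levels. In eye a transcript of 995 bases, aligned over 162 amino acids at 100% similarity, stood at 28.7 RPKM. In retina 2 transcripts of 799 and 899 bases, each aligned over 87 amino acids at 100% similarity, stood at 36.1 and 29.7 RPKM. A further retina transcript of 2375 bases, aligned over 200 amino acids, stood at 71.3 RPKM, and 1 of 108 bases with 5 reads stood at 0.13. Fragments of the assembly and short forms of the RNA cannot be told apart in these tables.

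GAD2, the decarboxylase of nerve endings, had 1 transcript per tissue, of 5674 bases in eye and 5777 in retina. Both were aligned over 584 amino acids to the same rat entry. Its level was 13.4 RPKM in eye (interval 13.2 to 13.6) and 23.7 in retina (23.5 to 23.9), a difference of -0.77 (-0.80 to -0.75). The lengths nearly match, and in RPM it differed by -0.84. GAD1 was the higher of the 2 decarboxylases in both tissues, by 3.43 times in eye and 3.92 times in retina with the highest transcripts, and by 3.43 and 3.35 times with length-matched transcripts. In RPM it was higher by 2.12 times in eye and 1.48 times in retina, so which tissue had the larger ratio depended on how a level was taken.

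VGAT, the vesicular carrier, also had a single transcript per tissue, aligned over 526 amino acids in each. It stood at 21.5 RPKM in eye (interval 21.2 to 21.8) and 37.6 in retina, a difference of -0.78 (-0.81 to -0.76). The eye transcript was longer, at 3357 bases against 2586, and in RPM the levels were 72.1 and 97.2, a difference of -0.43. The ratio of VGAT to GAD2 was 1.60 in eye (1.57 to 1.63) and 1.59 in retina (1.57 to 1.61). These intervals overlap, so by RPKM the 2 single-transcript members were in the same proportion in both tissues within counting error. In RPM the ratios were 0.95 (0.93 to 0.97) and 0.71 (0.70 to 0.72), and these intervals do not overlap. Whether the proportion was the same therefore depended on the division by length.

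GAT3, known under the entry name S6A11 and outside the rule, retrieves GABA into glia as well as neurons. Its single eye transcript of 1997 bases stood at 28.3 RPKM, and its retina transcript of 2012 bases, with the same 631-residue alignment, stood at 43.7. They differed by -0.61 (interval -0.64 to -0.58). In retina 3 shorter transcripts stood between 11.8 and 22.1 RPKM, and the length-weighted mean over all transcripts, which takes them in, turned the difference to 0.061. GAD1 exceeded GAT3 by 1.63 times in eye and 2.12 times in retina, and by 1.63 and 1.81 times with length-matched transcripts. In RPM the order of the tissues turned, with 2.87 times in eye and 2.31 times in retina.

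GlyT1, the carrier that clears glycine and that is known from glycinergic amacrine cells and glia, had 6 transcripts in eye and 9 in retina. The eye transcript of 2968 bases, aligned over 623 amino acids, stood at 42.6 RPKM (interval 42.2 to 43.1), and the retina transcript with the same alignment, of 3172 bases, at 43.4 (43.0 to 43.8). These values are close and their intervals overlap, but their difference of -0.026 (-0.045 to -0.0060) was beyond counting error. The highest retina transcripts, of 2122 and 2182 bases and aligned over 260 and 313 amino acids, stood at 50.2 and 49.8 RPKM, and they set the difference of -0.23 (-0.25 to -0.21). The pair closest in length differed by -0.069 (-0.088 to -0.049). The ratio of GAD1 to GlyT1 was 1.08 in eye and 1.85 in retina, 1.08 and 1.77 with length-matched transcripts, and 1.28 and 1.46 in RPM.

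Weak GlyT1 hits were also present. In eye 2 transcripts under 200 bases, with 70% and 48% similarity, stood at 0.59 and 0.33 RPKM, and in retina 2 with 71% and 52% similarity stood at 0.68 and 0.57. Their levels were far under those of the long transcripts, and none of them set a level given above.

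GABA transaminase, which converts GABA to succinic semialdehyde, had 4 transcripts in eye and 1 in retina. The 3 eye transcripts aligned over 500 amino acids stood at 27.8, 27.7 and 27.7 RPKM, and another, of 7539 bases and aligned over 335 amino acids, at 29.4. The retina transcript, of 4672 bases and aligned over 500 amino acids, stood at 34.6 RPKM (interval 34.3 to 34.9). The retina value lies above all 4 eye values. The highest transcripts differed by -0.23 (-0.25 to -0.21) and the pair closest in length by -0.31. The direction depended on the length of the eye transcript: in RPM the levels were 221 and 162, a difference of 0.45, because the 7539-base transcript carried 58470 reads against 33251 on the 4525-base one. Sums over transcripts gave 1.67, with 4 values added in eye and 1 in retina.

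**Figure D2:**
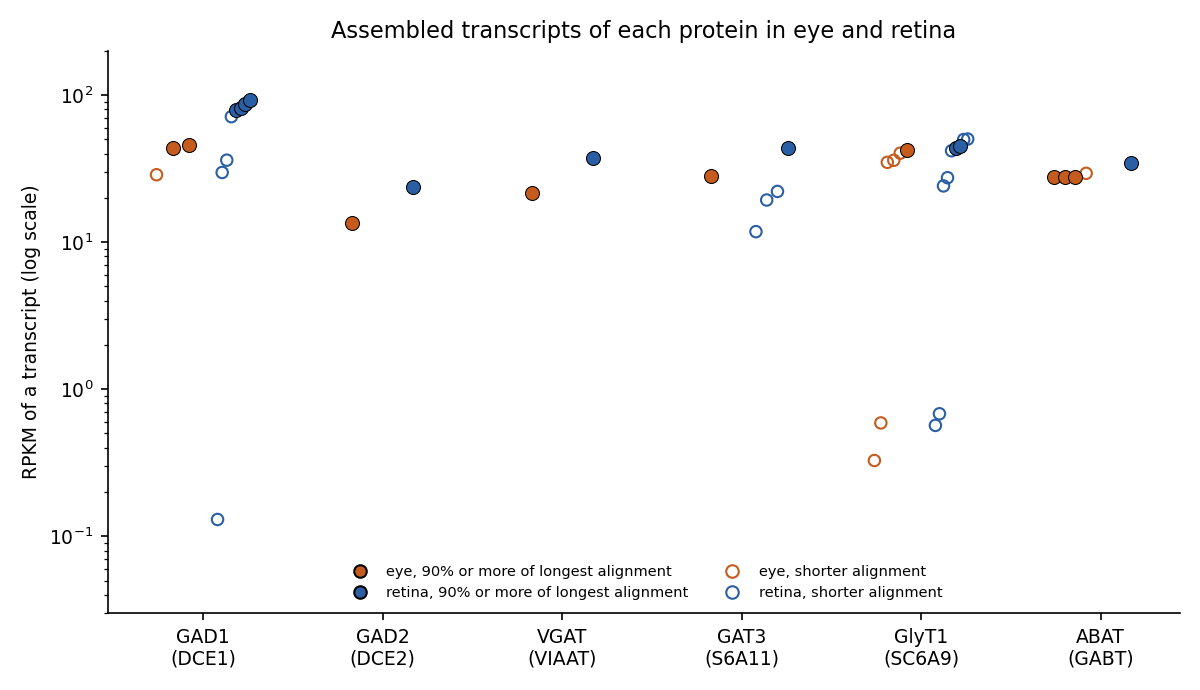
RPKM of each assembled transcript (y axis, log scale) of the 5 members and of S6A11 (x axis), eye in orange and retina in blue; filled points are transcripts aligned over at least 90% of the longest alignment of the protein, open points are shorter alignments. Filled retina points lie above filled eye points for DCE1, DCE2, VIAAT, S6A11 and GABT, and nearly level with them for SC6A9 at 42.6 and 43.4 to 44.7 RPKM.

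In order of level, the highest transcripts in eye ran from GAD1 (46.0 RPKM) through GlyT1 (42.6), GABA transaminase (29.4) and VGAT (21.5) to GAD2 (13.4). In retina GAD1 (92.7 RPKM) again came first, followed by GlyT1 (50.2), VGAT (37.6), GABA transaminase (34.6) and GAD2 (23.7). By RPKM, the only change of place was between VGAT and GABA transaminase. Neighbours in these orders differ by more than counting error, but in eye the transcripts of GAD1 and GlyT1 spread over one another, at up to 46.0 and 42.6 RPKM and down to 28.7 and 0.33. No spread over libraries is available to separate them. The orders were different in RPM. GABA transaminase stood above GAD1 in eye, at 221 and 162, and below it in retina, at 162 and 203. GAD2 stood above VGAT in both tissues, at 76.2 and 72.1 in eye and 137 and 97.2 in retina. Against all names in a table, GAD1 stood at percentile 89.3 in eye and 95.3 in retina, GlyT1 at 88.5 and 90.5, GABA transaminase at 83.1 and 86.0, VGAT at 77.0 and 87.2 and GAD2 at 65.4 and 79.0.

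Read counts recovered from the values show why the highest single transcript was used rather than a sum. The 2 long GAD1 transcripts of eye held 42729 and 42728 reads, and the 4 long ones of retina held 72176, 70257, 69819 and 70269. Nearly equal counts on transcripts of different length would be added again in a sum if the reads are the same, which was not tested. By sums, GAD1 differed by -2.0, while GAD2 and VGAT, with 1 transcript in each tissue, kept -0.77 and -0.78. Length-matched transcripts, the pairs closest in length among long alignments, gave GAD1 a difference of -0.77, against -0.995 for the highest transcripts. Its pair still differed in length, at 3514 bases in eye and 2490 in retina. GAD2 and VGAT had no other transcript to choose, so their -0.77 and -0.78 were the same by either choice. In RPM, GAD1, GAD2 and VGAT differed by -0.32, -0.84 and -0.43. The length-matched and RPM measures were added after seeing the data.

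**Figure D3:**
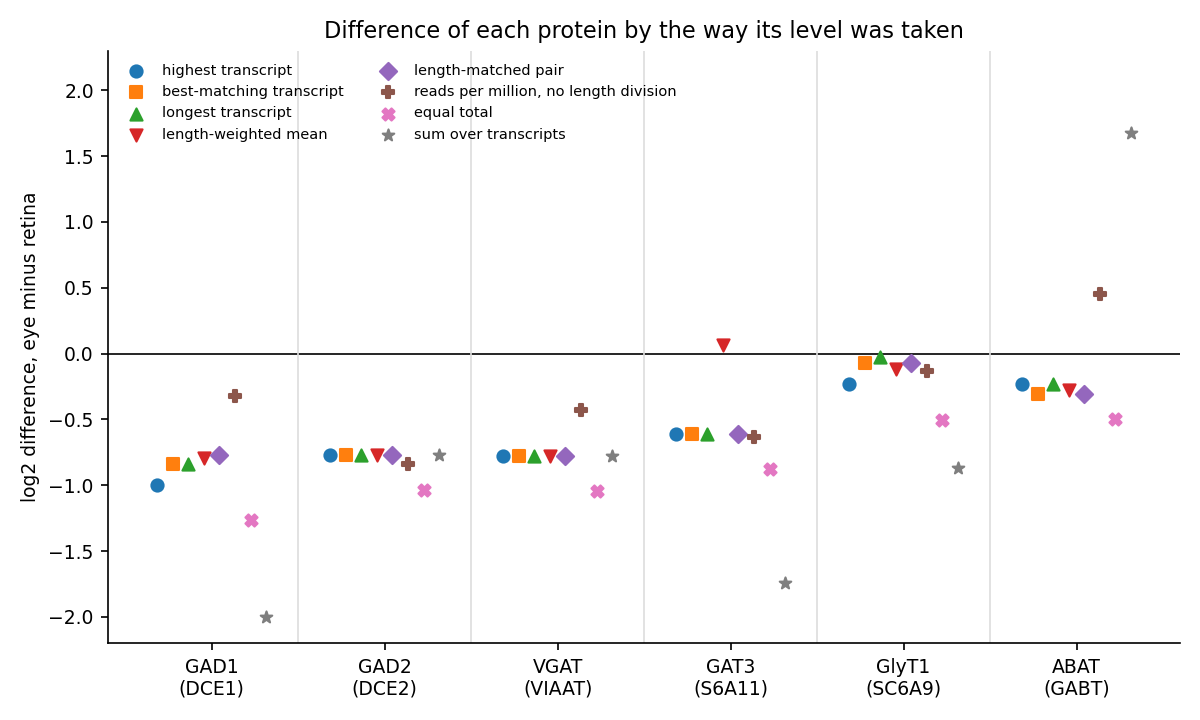
Difference between eye and retina (y axis, log2 scale, pseudocount 1) of the 5 members and of S6A11 (x axis), with 1 marker per way of taking a level; RPM is not divided by length, and equal total rescales the highest transcripts. DCE2 lies between -1.04 and -0.77 and VIAAT between -1.05 and -0.43, DCE1 ranges from -0.32 to -2.0, and GABT lies above 0 for RPM and for sums.

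Related carriers of the SLC6 family, to which GlyT1 belongs, did not share 1 direction. Of 7 names listed, 5 were compared, 2 lower and 3 higher in eye, with a median of 0.13 and 2 at least 2-fold higher. The names SC6AC and SC6AD were in neither table used here, which does not mean that a carrier was absent. With an equal total 3 of 5 were lower, beside 66.3% of all proteins, and the median was -0.15. Of all proteins, 49.7% were higher in eye by any amount and 11.8% at least 2-fold. S6A13, another GABA transporter, which is known from liver, kidney and meninges, stood at 12.6 and 11.9 RPKM on its 2 eye transcripts and at 2.17 on its retina transcript. Its difference was 2.10 (interval 2.04 to 2.15), with alignments of 604 amino acids throughout. S6A12, the betaine and GABA transporter, was singled out after its values were seen. It stood at 9.18 RPKM in eye against 2.75 in retina, a difference of 1.44 that became 0.70 with sums, and its full-length retina transcript stood at 2.51. GAT3 exceeded S6A13 by 2.24 times in eye and by 20.1 times in retina. The taurine carrier SC6A6 was at 83.1 and 76.1 RPKM, a difference of 0.13 that became -0.15 with an equal total and -0.056 in RPM. The creatine carrier SC6A8 was at 47.5 and 69.0 RPKM, a difference of -0.53.

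Enzymes further along the 2 pathways were mixed. Of 8 listed enzymes of GABA and glycine breakdown and glycine synthesis, 7 were compared, 3 lower and 4 higher in eye, with a median of 0.25 that became -0.013 with an equal total, when 4 were lower. AL9A1, an aldehyde dehydrogenase that makes GABA from aminobutyraldehyde, was at 52.1 RPKM in eye against 23.0 in retina, a difference of 1.14 that became 0.88 with an equal total. GCSP, the glycine dehydrogenase of the glycine cleavage system, was named after its values were seen, since it was the other of the 2 at least 2-fold higher, at 9.59 and 3.44 RPKM, a difference of 1.25 that became 0.58 with sums. The aminomethyltransferase GCST was at 118 and 123 RPKM on transcripts of 396 and 403 bases, the carrier GCSH at 40.8 and 31.3, and the lipoamide dehydrogenase DLDH at 34.3 and 38.7. GLYC, the cytosolic serine hydroxymethyltransferase, had 0.66 RPKM in retina and no row in the eye table used here.

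Of 9 proteins that supply glutamate, glutamine and the cofactor of the decarboxylases, 6 were lower in eye (median -0.36), beside 50.3% of all proteins. With an equal total 9 of 9 were lower, beside 66.3% of all, and with length-weighted means 5 of 9. The glutaminase GLSK was at 26.9 RPKM in eye against 39.9 in retina, a difference of -0.55 that became 0.069 with the length-weighted mean. The glutamine carriers S38A1, at 39.8 and 60.0 RPKM, and S38A3, at 44.7 and 70.7, differed by -0.58 and -0.65. S38A5, another glutamine carrier, was the only one at least 2-fold lower and was named for that after its values were seen, at 0.93 and 7.66 RPKM on transcripts of 907 and 380 bases. Its difference of -2.17 became -0.86 with length-weighted means and -0.81 in RPM, short of 2-fold, and it was not compared with best-matching, longest or length-matched transcripts. Glutamine synthetase GLNA, which Mueller glia hold, was at 856 and 801 RPKM on transcripts of 421 and 347 bases, and its difference of 0.095 became -0.18 with an equal total, -0.73 with best-matching transcripts and 5.53 with the longest, so these data give it no settled direction.

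On the receiving side, 13 of 15 GABA-A and GABA-rho receptor subunits compared stood lower in eye (median -0.34), beside 50.3% of all proteins. Of these subunits, 2 were at least 2-fold lower, beside 3.6% of all proteins. The number at least 2-fold lower was 5 with an equal total, 6 of 18 with sums and 9 of 18 in RPM. Among all proteins it was 902 of 13378, 2637 of 13696 and 938 of 13501, in the same order. For the subunits it was 1 with length-weighted means and 0 with best-matching, longest or length-matched transcripts. The lower subunits stayed the majority under each of these settings. GBRR1, a rho subunit known from bipolar cells, was at 23.1 RPKM in eye against 49.5 in retina, a difference of -1.07 that became -0.92 with best-matching and -0.69 with the longest transcripts. GBRA6, named after its values were seen as the other 2-fold case, was at 6.32 and 19.5 RPKM. Its difference of -1.49 became -0.57 with best-matching, -0.58 with the longest, -0.70 with length-matched and -0.77 with length-weighted transcripts, all short of 2-fold. GBRA1 was at 23.7 and 43.5 RPKM and GBRG2 at 21.1 and 35.8, differences of -0.85 and -0.74. GBRR2, the other abundant rho subunit, was higher in eye by its highest transcripts, at 43.1 and 28.2 RPKM on 943 and 1391 bases, but lower by -0.59 with the longest and by -0.72 with the best-matching transcripts. GBRA5, GBRG3 and GBRE were under 1 RPKM in both tissues, and GBRP had 4.11 RPKM in eye and no row in the retina table used here.

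All 5 glycine receptor subunits had lower levels in eye, beside 50.3% of all proteins. Their differences ran from -0.65 to -0.38 with a median of -0.47, and none passed 2-fold. GLRB, the beta subunit that binds the scaffold gephyrin, was the highest at 7.37 and 10.5 RPKM. GLRA3 was at 3.20 and 5.53 RPKM, GLRA2 at 3.49 and 5.21, and GLRA4 at 1.78 and 3.36, though GLRA3 differed by 0.19 with the longest transcripts. GLRA1, named after its values were seen, had the difference of -0.38, on transcripts of 154 and 188 bases at 1.08 and 1.70 RPKM. With mammalian hits it became 0.18, leaving 4 of 5 lower, and with a minimum of 200 bases it was not compared. Beside them stands the difference of -0.23 for GlyT1, or -0.069 with the length-matched pair. Of the 2 GABA-B subunits, GABR1 was at 33.2 and 27.5 RPKM, a difference of 0.26 that became -0.00596 with an equal total, and GABR2 was at 11.5 and 16.8, a difference of -0.51.

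Postsynaptic scaffold proteins and chloride carriers were lower in eye in 4 of 5 cases (median -0.50), beside 50.3% of all proteins. This depended on the transcript chosen. With the longest transcripts 2 of 5 were lower (median 0.00997), with length-matched pairs 2 of 4 (median -0.19), and with best-matching transcripts and length-weighted means 3 of 5 (medians -0.34 and -0.20). Gephyrin (GEPH) was at 13.2 and 18.9 RPKM, collybistin (ARHG9) at 34.2 and 48.9, and neuroligin 2 (NLGN2) at 18.3 and 28.6, the last with a difference of -0.62 that became 0.00997 with the longest transcripts. S12A5, the neuronal potassium and chloride exporter KCC2 on which hyperpolarising inhibition depends, was at 59.6 and 109 RPKM, a difference of -0.87, but at 0.17 with best-matching transcripts and 1.96 with the longest. S12A2, the chloride importer NKCC1, was named after its values were seen as the 1 higher in eye, at 5.74 and 3.70 RPKM.

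Markers of the cells that hold these transmitters came from lists chosen with earlier results of these data known. All 7 amacrine markers were lower in eye (6 of 7 with the longest transcripts), 3 at least 2-fold, with a median of -0.56. Their summed level was 345 RPKM in eye against 479 in retina. Of all proteins, 50.3% were lower in eye and 3.6% at least 2-fold lower. Of 4 horizontal cell markers compared, 3 were lower, with a median of -0.40 (2 of 4 and -0.053 with sums). Bipolar cell and photoreceptor markers, 5 and 4 compared, were all lower, with medians of -0.90 and -0.83. For bipolar cells this became 3 of 5 with a median of -0.11 with length-weighted means and of -0.48 with the longest transcripts, and for photoreceptors 3 of 4 with best-matching and longest transcripts. Of 5 ganglion cell markers, 4 were lower, with a median of -0.22. Mueller glia markers had no settled direction. They were higher in eye for 5 of 6 with the highest transcripts (median 0.47) and 3 of 6 with an equal total (0.21), but lower for 4 of 6 with best-matching transcripts (-0.88) and 3 of 5 with length-matched pairs (-0.92). Pigment epithelium markers were higher for 4 of 5, with a median of 0.91, which became 0.0054 with best-matching transcripts (2 of 5 lower) and -0.98 with length-matched pairs (1 of 2 lower). Lens and corneal markers were higher in eye for 5 of 5 and 4 of 4, with medians of 10.02 and 9.17, and summed to 27.1 and 3.34 RPKM in retina against 9651 and 5250 in eye. The 1 astrocyte marker compared was higher in eye, with a difference of 3.03. Myelin markers were higher for 3 of 3 (median 2.89) and skeletal muscle markers for 2 of 3 (median 6.78), with 1 lower. The part of these cell types in the differences of the members was not tested.

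**Figure D4:**
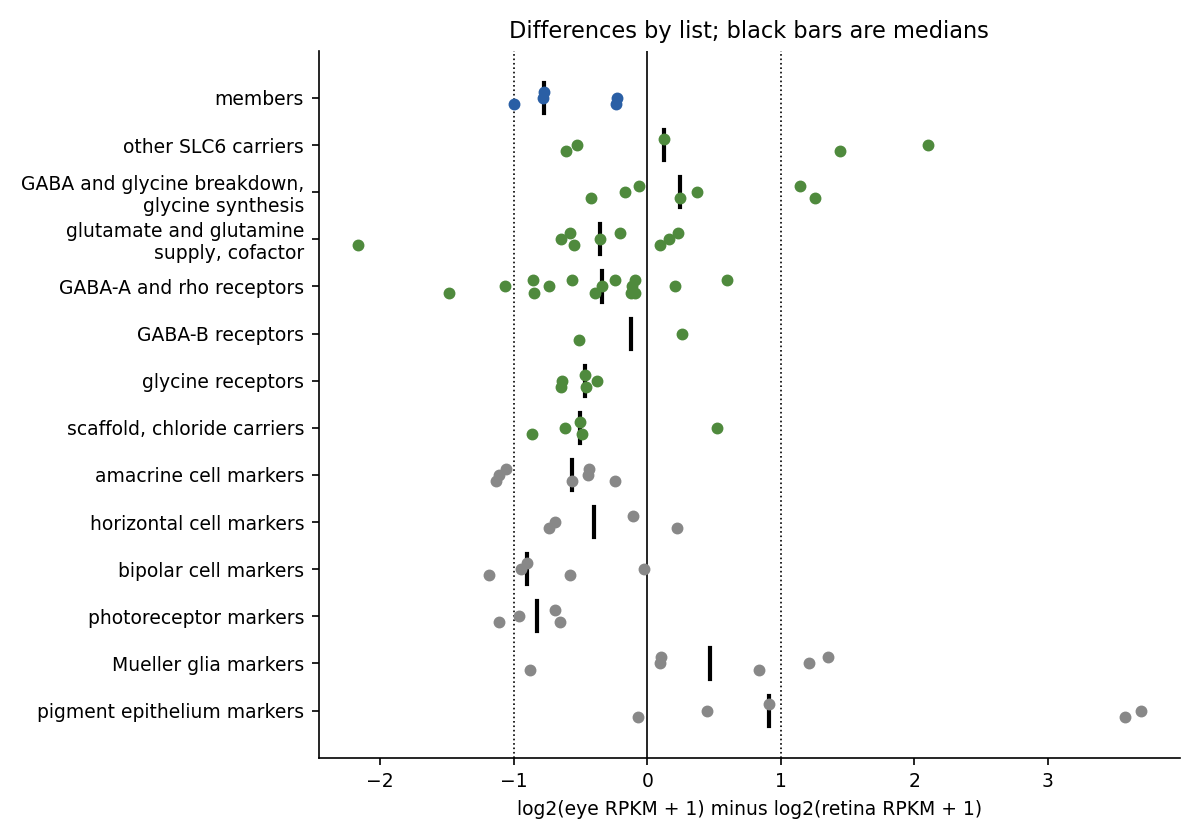
Difference between eye and retina (x axis, log2 scale, pseudocount 1) for each protein of the lists named on the y axis, members in blue, related proteins in green and cell type markers in grey, with black bars at medians and dotted lines at 2-fold. The 5 members lie between -0.995 and -0.23, beside amacrine, bipolar and photoreceptor markers with medians from -0.90 to -0.56, while 2 of the other SLC6 carriers lie beyond the 2-fold line in the opposite direction.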

How the data were processed

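The authors deposited, for each tissue, a table with 1 expression value and a length per assembled transcript and a table of best Swiss-Prot hits with an alignment score and a similarity in percent, per the file headers. That the deposited values are RPKM was inferred, since value times length was a whole multiple of 1 constant within 0.01 reads for 100% of transcripts. Bowtie appears in the submitters' processing notes without a version or a role. For the assembler, the counting mode and a genome build: not given in the sources used here. Recovered reads over transcripts with a hit summed to 6.05 times the scaling total in eye and 4.44 times in retina.

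Transcripts were joined to hits on their identifier and grouped by the entry name before the species code, with Python 3.11.15, pandas 2.3.3 and scipy 1.17.1. The highest transcript stood for a protein, with a pseudocount of 1 and a filter at 1 RPKM in either tissue. Each tissue column covers all its libraries, so values have no spread over libraries and no test was run. Called means a 2-fold difference. Intervals (95%) are Poisson. The interval code was tested on simulated Poisson counts with a smaller pseudocount. That test checks the code and cannot show that the intervals hold for these data. Of the names the rule lists, 1 is not reported here. The members and lists were chosen with earlier results of these data known. Named are the members reported, the 4 highest of each pathway list, names in 1 table only, and those stated as chosen after their values were seen. The 11 alternatives listed beforehand and 2 added after seeing the data are given in the closing section. All 7 symbols of these names were found in RefSeq assembly mIctTri1.hap1, used for names only.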

Additional observations from a re-analysis of the deposited data

How the results depend on the processing

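Each tissue has 1 value per transcript, so no replicate could be left out. No paired analysis was possible because the table columns cover all libraries of a tissue and carry no replicate numbers. All 5 members were lower in eye under 11 of the 13 alternatives, and 4 were under sums and in RPM, where GABT differed by 1.67 and 0.45. Several of the 11 could not have differed in this. Every member value was unchanged with a minimum of 200 bases, an E-value of 1e-20 or less, mammalian hits, no filter or the filter at 10 RPKM. A pseudocount of 0.1 cannot turn a sign. The median over the members was -1.04 with an equal total, -0.81 with pseudocount 0.1 and -0.32 in RPM. Of the members, 1 was at least 2-fold lower with sums and with pseudocount 0.1 and 3 with an equal total, and 0 under the other 10. Among all proteins, 1577 exceeded the 2-fold mark in eye, against 921 with the filter at 10 RPKM and 893 with length-matched pairs, both of which compare fewer proteins. In retina 482 did, against 2637 with sums, 272 with length-weighted means, 902 with an equal total, 938 in RPM and 177 with length-matched pairs. Signs of related proteins turned as follows, and the cause was not tested. With sums GCST differed by 0.054 and GBRR2 by -0.37. With best-matching transcripts GLNA differed by -0.73, GBRR2 by -0.72, GABR1 by -0.045 and S12A5 by 0.17, the last 2 also with length-matched pairs. With the longest transcripts GBRR2 differed by -0.59, GABR1 by -0.045, GLRA3 by 0.19, S12A5 by 1.96 and NLGN2 by 0.00997. With length-weighted means S6A11 differed by 0.061, GLSK by 0.069 and S12A5 by 0.23. With mammalian hits GLNA differed by -0.34 and GLRA1 by 0.18. With an equal total SC6A6 differed by -0.15, GLNA by -0.18 and GABR1 by -0.00596. In RPM SC6A6 differed by -0.056, DLDH by 0.023, GBRR2 by -1.63 and GABR1 by -0.096. By the intervals, counting error limits none of the member values much, and spread between libraries and animals is unknown. The intervals take the recovered counts as independent reads, although these summed to 6.05 times the scaling total in eye and 4.44 times in retina. They may therefore be too narrow, which was not tested.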
